A study of Mus musculus with 2 samples.

Results

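Dense patches of low peaks are stretches of the genome where many weak, narrow DNase-seq peaks lie close together. In DNase-seq, nuclei are treated with the enzyme DNase I and the cut ends are sequenced, so that cuts pile up where chromatin is open. The tissue was urinary bladder, taken at an age of 4 days from females of strain B6CASTF1/J, a first-generation hybrid of C57BL/6J and CAST/EiJ parents, with no treatment named in the labels. There was 1 group, with 2 biological replicates. The labels number their females separately but list them under 1 donor identifier, so the spread between them may be partly technical. Each replicate has 2 lists of peaks called in that replicate alone, a list of footprints, and a list of base stretches with a false discovery rate (FDR) of at most 0.05.

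The patches were chosen by the heights and positions of the peaks themselves, in the shorter of the peak lists. A peak was low when its height was below 0.386 in replicate 1 or below 0.459 in replicate 2. A patch was a run of at least 5 low peaks with gaps of at most 3 kb, and taller peaks inside a run did not end it. Replicate 1 had 1487 patches, made from 19265 of its 23557 low peaks and of its 61623 listed peaks. Replicate 2 had 2661 patches, made from 38882 of 45827 low peaks and of 77545 listed peaks. Together these are 4148 patches, and 607 patches of each replicate overlapped a patch of the other by at least 1 bp. Since height, number and closeness of the low peaks define the patches, those values are given as a description and carry no test. With 1 library for each replicate and 1 group, no other comparison carries a test either.

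In a cell nucleus most DNA is wrapped around histones, and DNase I cuts best where nucleosomes are displaced by bound transcription factors, at promoters and enhancers. A footprint is a short stretch inside an open region that is cut less than its surroundings, as happens where a bound protein shields the DNA. Strong open regions are usually isolated and narrow, whereas broad domains of moderate accessibility can surround clusters of enhancers or active genes. The bladder wall of a newborn mouse holds an epithelium (urothelium), a stroma of fibroblasts and vessels, and layers of smooth muscle. Transcription start sites (TSSs) had a peak of the longer list within 500 bp for 8 of 8 smooth muscle markers in replicate 1 and 7 of 8 in replicate 2. The same held for 5 of 8 urothelial markers in each replicate, for 6 of 6 fibroblast markers in each, for 4 of 5 endothelial markers in each and for 1 of 5 immune markers in each. It held for 2 of 4 markers of nerve and glia in replicate 1 and 1 of 4 in replicate 2, and for 0 of 3 liver markers in each.

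The following sequences show what a low peak of these patches looks like at its best. For each of the 6 shared patches with the most low peaks, the tallest low peak that both replicates called is printed, as the part common to both calls and cut to its central 200 bases where longer. They were read from GRCm38.p6, the assembly of mm10, on the forward strand, 5′ to 3′. Capitals mark bases inside a footprint of either replicate.
Patch 1, chr1:91708571-91708770: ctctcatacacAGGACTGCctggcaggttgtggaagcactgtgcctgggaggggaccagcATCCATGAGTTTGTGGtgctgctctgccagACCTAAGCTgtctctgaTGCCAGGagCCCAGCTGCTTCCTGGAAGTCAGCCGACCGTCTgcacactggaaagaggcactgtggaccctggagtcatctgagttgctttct
Patch 2, chr15:93610961-93611160: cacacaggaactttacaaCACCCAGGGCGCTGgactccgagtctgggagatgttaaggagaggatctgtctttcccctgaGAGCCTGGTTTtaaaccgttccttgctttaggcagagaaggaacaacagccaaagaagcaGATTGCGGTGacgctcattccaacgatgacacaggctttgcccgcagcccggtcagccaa
Patch 3, chr9:111551061-111551140: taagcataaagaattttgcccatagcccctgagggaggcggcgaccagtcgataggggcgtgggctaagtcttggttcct
Patch 4, chr7:43860461-43860640: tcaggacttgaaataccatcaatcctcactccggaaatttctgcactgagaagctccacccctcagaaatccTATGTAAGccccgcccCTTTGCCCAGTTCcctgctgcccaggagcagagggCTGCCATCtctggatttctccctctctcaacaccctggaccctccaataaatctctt
Patch 5, chr10:79540741-79540940: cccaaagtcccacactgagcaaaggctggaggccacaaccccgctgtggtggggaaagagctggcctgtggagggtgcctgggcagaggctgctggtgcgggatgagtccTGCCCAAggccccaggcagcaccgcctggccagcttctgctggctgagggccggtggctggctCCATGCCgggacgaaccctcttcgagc
Patch 6, chr9:117117261-117117460: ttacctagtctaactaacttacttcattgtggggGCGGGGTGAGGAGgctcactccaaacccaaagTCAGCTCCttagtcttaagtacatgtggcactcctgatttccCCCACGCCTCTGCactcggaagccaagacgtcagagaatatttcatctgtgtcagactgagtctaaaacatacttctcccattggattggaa
The peak of patch 1 held 4 footprints of replicate 1 and 3 of replicate 2, covering 73 of its 200 bases. That of patch 2 held 3 footprints, all of replicate 2, and that of patch 3 held none in either replicate. Patch 5's peak lay entirely in exons of Mier2, a gene for a chromatin-associated corepressor. The peak of patch 6 lay in an intron of Rbms3, which encodes an RNA-binding protein. The other 4 lay outside protein-coding genes. GC content of the 6 sequences ran from 47.5% in patch 6 to 68% in patch 5.

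Heights in each replicate were whole multiples of a fixed step, 0.00466 in replicate 1 and 0.00417 in replicate 2 (100% of heights in each, within 0.02 of a step). The median low peak of a patch stood at 0.168 in replicate 1, or 36 steps. In replicate 2 it stood at 0.163, or 39 steps. Tall peaks, meaning those at or above the limit, had medians of 1.25 and 1.16. The tallest low peak of replicate 1 was 0.3818 high and the lowest peak above the limit 0.3865, a single step apart. In replicate 2 these heights were 0.4586 and 0.4628. Runs of 4 low peaks, just short of a patch, numbered 274 in replicate 1 and 411 in replicate 2, against 217 and 341 patches with exactly 5.

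The patches held most of the weak signal on little of the genome. They took in 81.8% of the low peaks of replicate 1 and 84.8% of those of replicate 2, on 12.8 Mb and 24 Mb. That is 0.482% and 0.908% of the assembled sequence. A median patch of replicate 1 held 10 low peaks over 6725 bp, and the fullest held 71. In replicate 2 the median was 11 low peaks over 7136 bp, and the fullest patch held 91. Within a patch the low peaks lay close together. The median over patches of their median centre-to-centre spacing was 559 bp in replicate 1 (quartiles 480 and 670 bp) and 510 bp in replicate 2 (quartiles 448 and 610 bp). Few tall peaks took part. Of the tall peaks, 2.08% in replicate 1 and 2.48% in replicate 2 lay in a patch, and 29.3% and 19.5% of patches had one inside.

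Autosomes differed in how many patches they carried, and the X chromosome carried few. The lowest autosome of replicate 1 was chromosome 3, with 4.09 patches per 10 Mb, the median autosome had 5.82, and the highest was chromosome 17, with 11. In replicate 2 the lowest was chromosome 4, with 6.77, the median was 11, and chromosome 17 was again the highest, with 16.8. Over the 19 autosomes the densities of the replicates had a Spearman rho of 0.752, which describes libraries that share the genome's gene and repeat content. The X chromosome had 0.979 patches per 10 Mb in replicate 1 and 1.83 in replicate 2, below each autosome of the same replicate. A single patch of each replicate lay on the Y chromosome, at the same place (chrY:10705601-10709580 in replicate 1 and chrY:10705781-10709060 in replicate 2), although the tissue is labelled female.

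**Figure D1:**
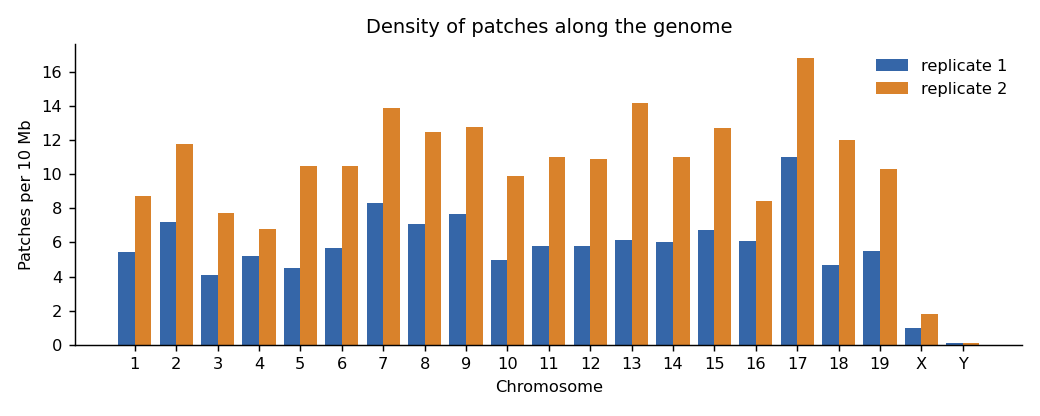
Patches per 10 Mb of assembled sequence (vertical axis) on each chromosome (horizontal axis), with 1 bar for each replicate. Chromosome 17 is highest in both replicates, and X and Y are lowest.

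Patches were shared between the replicates to a limited degree. The 607 shared patches were 40.8% of those of replicate 1 and 22.8% of those of replicate 2. The bases that lay in a patch of both replicates came to 4.37 Mb, or 34.2% of the patch bases of replicate 1 and 18.2% of those of replicate 2. With at least 0.5 of a patch required to be covered, 31.4% and 15.3% remained. Merging overlapping patches gave 580 shared places, of which 532 held 1 patch of each replicate. In these 532 pairs the starts lay a median of 2355 bp apart and the ends 1914 bp apart. At least 1 end matched within 500 bp in 229 pairs (43%), and both did in 25. The number of low peaks in the pair had a Spearman rho of 0.285 over the 532 places, a weak relation in rank.

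Shared patches were larger than the rest but not much stronger. In replicate 1 their median was 12 low peaks over 8227 bp, against 9 over 5902 bp for the 880 patches without a partner. In replicate 2 the medians were 16 over 10009 bp, against 10 over 6459 bp for the 2054 without one. A long patch has more chance to overlap another, so this difference is partly set by the definition of sharing. The median height of their low peaks was 0.172 against 0.163 in replicate 1 and 0.179 against 0.158 in replicate 2. Inside shared patches, 58.6% of the low peaks of replicate 1 overlapped a peak of the shorter list of replicate 2, and 51.6% the other way round. For low peaks of patches without a partner the shares were 2.63% and 1.81%. Most low peaks lie in patches, so the shares for patches without a partner are largely fixed by the definition of sharing. For low peaks that lay in no patch, which carry no such condition, the shares were 17.1% and 9.82%. Tall peaks were matched in 74% and 88.4%. The 5559 low peaks of shared patches that could be paired had medians of 0.182 in replicate 1 and 0.192 in replicate 2, with a Spearman rho of 0.57 across peaks, which are not independent replicates. Both members of a pair were held below the height limit by the rule, so rho describes a cut range.

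The FDR lists and the longer peak lists give a further view of the patches. The FDR lists cover 1.18% of the genome in replicate 1 and 1.3% in replicate 2, and patches held 26.1% and 43.4% of all listed bases. In a replicate's own list, a median of 63.8% of the bases of a patch were listed in replicate 1 and 62.9% in replicate 2. These values come from the cuts that also gave the peaks, so they describe the members and support nothing. The list of the other replicate was not used by the rule for the patches of the first. There, a median of 55.2% of the bases of shared patches of replicate 1 were listed, with a lower quartile of 32.8%. For its patches without a partner the median was 0%, with an upper quartile of 2.33%. For replicate 2 the medians in the other's list were 50.3% for shared patches and again 0% for the rest, where the upper quartile was 1.24%. Of the patches without a partner, 596 of 880 in replicate 1 and 1480 of 2054 in replicate 2 had no peak of the other replicate even in the longer list. Sharing was itself defined with peaks of both replicates, so part of this contrast is fixed by that definition, and how much was not tested.

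**Figure D2:**
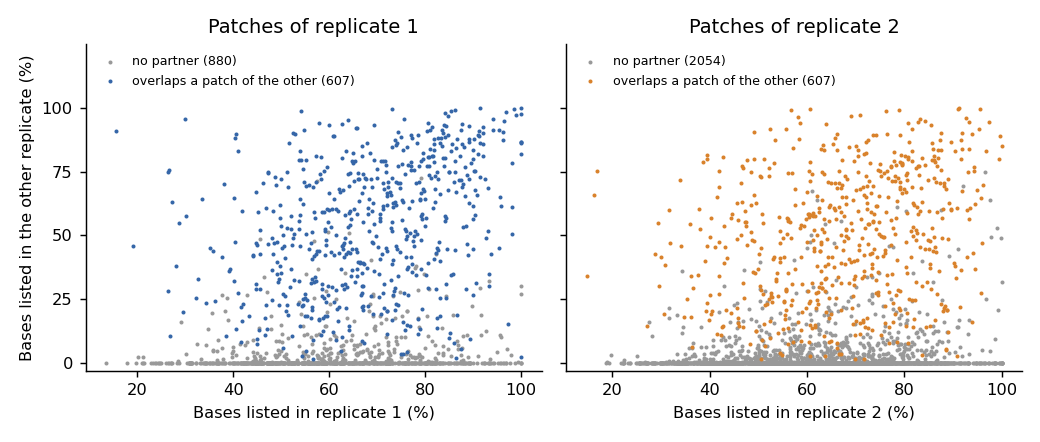
Share of each patch's bases listed at an FDR of at most 0.05 in its own replicate (horizontal axis, %) and in the other replicate (vertical axis, %), with 1 point for each patch. Grey points, patches without a partner, lie mostly along 0% on the vertical axis, and coloured points, shared patches, spread up to 100%.

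Footprints were present in the low peaks, at a lower rate than in tall ones. Of the low peaks in patches, 44.8% ± 0.102 (SD, n = 2) held at least 1 footprint of their own replicate: 8638 of 19265 in replicate 1 and 17378 of 38882 in replicate 2. Over all peaks of the shorter lists the share was 74% in replicate 1 and 64.3% in replicate 2. Tall peaks alone reached 92.1% and 92.3%. Low peaks outside patches, at 44.9% and 46.4%, were close to those inside. They were narrower, with median widths of 140 and 134 bp against 202 and 187 bp. Per kb they held more footprints, 4.46 and 5.02 against 3.9 and 4.12. Between shared patches and the rest the shares were 45.4% against 44.3% in replicate 1 and 46.9% against 43.8% in replicate 2. Per kb the footprints numbered 3.9 against 3.89 in replicate 1 and 4.3 against 4.04 in replicate 2. Windows of 150 bp were also taken in the middle of gaps of at least 300 bp between neighbouring low peaks of a patch. A window that overlapped a peak of the longer list was left out. These gap windows held a footprint in 1.96% and 1.22% of cases, a share partly set by choosing them free of peaks. The peaks were chosen by height, and the part of height in these shares was not tested. In all, patches held 24070 of the 217816 footprints of replicate 1 (11.1%) and 40305 of the 189794 of replicate 2 (21.2%).

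The base composition of the low peaks, which the rule did not use, lay between that of tall peaks and that of the peak-free gap windows. Their median GC content was 50.7% ± 0.254 (SD, n = 2). It was 60.4% and 61.4% in tall peaks and 42.7% and 42% in the gap windows, where the whole genome has 41.7%. Observed over expected CpG, which is near 1 in unmethylated CpG islands, had a median of 0.198 and 0.201 in the low peaks of patches. In tall peaks it was 0.593 and 0.64, and in the gap windows 0.152 and 0.153. Low peaks of patches lay within 1 kb of a protein-coding TSS in 5.83% of cases in replicate 1 and 6.17% in replicate 2, against 53.6% and 55.8% of tall peaks. Low peaks outside patches had a GC content of 51.7% in both replicates and lay near a TSS in 10.4% and 10.3% of cases. In these measures low peaks of patches thus resembled other low peaks more than tall ones, and shared patches differed little from the rest (51.4% GC in both replicates against 50.5% and 50%).

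**Figure D3:**
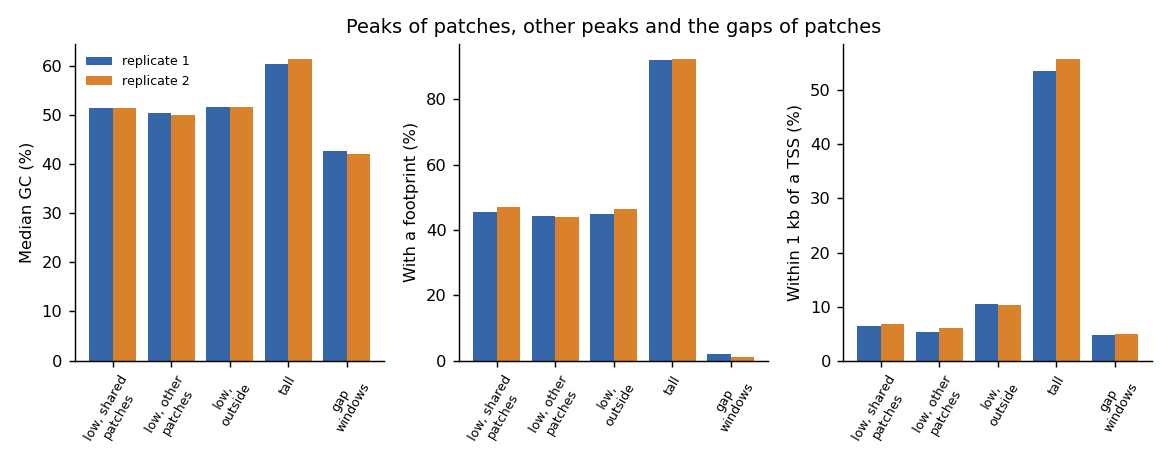
Median GC content, share with a footprint and share within 1 kb of a TSS (vertical axes, %) for low peaks of shared patches, low peaks of other patches, low peaks outside patches, tall peaks, and windows of 150 bp in the gaps of patches, with 1 bar for each replicate. Low peaks stand between gap windows, which overlap no peak of the longer list, and tall peaks in GC content. They stand far below tall peaks near TSSs.

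Short motifs were counted on both strands in the central 150 bp of each peak or gap window, as a description. The SP/KLF box GGGCGG, common in CpG-rich promoters, was in 3.33% and 3.57% of the low peaks of patches, in 34% and 38% of tall peaks, and in 1.16% and 1.18% of gap windows. The letters AGGGGGC, part of the site of the insulator protein CTCF, were in 2.41% and 2.48%, against 12.8% and 14.1% of tall peaks and 1.38% and 1.06% of gap windows. ETS-type CCGGAAG gave 0.924% and 0.931%, against 5.89% and 7.07% in tall peaks. AP-1, written TGANTCA, showed no such gap: it was in 4.55% and 4.54% of the low peaks, 3.78% and 3.77% of tall peaks, and 4.22% and 4.24% of gap windows. The E-box CAGCTG was in 11.1% and 11% of low peaks, near the 12.4% and 11.3% of tall peaks and above the 4.91% and 5.1% of gap windows. AT-rich letters ran the other way: the homeobox core TAATTA was in 1.51% and 1.59% of low peaks but in 5.54% and 5.63% of gap windows, and AGATAA, the GATA site, in 5% and 5.14% against 9.17% and 10%. Base composition differs between the classes as given above, and its part in these shares was not tested. AGGGGGC and GGGCGG can overlap each other in the letters they share.

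Slightly more patches touched than missed a protein-coding gene: 53.4% ± 0.534 (SD, n = 2), which is 789 patches of replicate 1 and 1432 of replicate 2. By length, 45.5% and 46.6% of patch bases lay in such genes, which cover 39.3% of the genome. A protein-coding TSS lay inside 16.7% and 17.7% of patches, and the median distance to the nearest one was 15.7 kb and 17.7 kb. Shared patches held a TSS somewhat more often, in 20.6% against 14.1% of the rest in replicate 1 and 23.2% against 16.1% in replicate 2. They are also longer, and the part of length in this was not tested. Repeat-masked bases, marked in the reference, made up 23.7% and 23.8% of patch bases, below the 36.4% of the genome.

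Seen from the genes, patches of replicate 1 touched 751 of 21938 protein-coding genes (3.42%), those of replicate 2 touched 1244 (5.67%), and the merged shared patches touched 394 (1.8%). A merged shared patch can touch a gene through the patch of a single replicate. Long genes were touched more often. Among genes of 100 kb or more the shares were 9.95%, 16.1% and 4.78%, and among those under 10 kb they were 1.39%, 2.39% and 1.04%. Gene lists are read against these shares, which cover protein-coding genes only. The lists of imprinted genes and of noncoding RNAs also hold noncoding genes. Neighbouring genes of a list, such as Hoxd3 and Hoxd4, can be touched by the same patch. Imprinted genes, of which only the maternal or the paternal copy is active, were touched by patches of replicate 1 in 6 of 25 cases, by those of replicate 2 in 4 and by shared patches in 3. For 36 growth factors and signals the counts were 4, 5 and 3, and for 99 developmental transcription factors 8, 10 and 3. Of the 39 Hox genes, homeobox genes of axial patterning, 6, 2 and 2 were touched. For 24 urothelial genes each count was 2. Further counts were those of the 21 smooth muscle genes (1, 0 and 0), the 34 genes of the extracellular matrix (1, 3 and 0), the 18 immediate early genes (1, 1 and 0), the 22 housekeeping genes (0, 0 and 0) and the 45 multicopy genes (1, 4 and 1). Among 16 abundant noncoding RNAs the counts were 2, 1 and 1, and among 22 nuclear receptors and cofactors 2, 3 and 1. Of 1134 olfactory receptor genes 3, 3 and 2 were touched, and of 330 vomeronasal receptor genes none in either replicate. The 56 clustered protocadherin genes had counts of 21, 0 and 21, because 21 genes of the gamma cluster share their last exons at a single place. Many of these lists hold few genes, and several counts lie near the share of all genes, so the lists are described by their counts alone.

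The first 12 shared patches by their total of low peaks show how far they can extend and how the replicates differ inside them. The fullest merged patch, chr1:91699121-91748780, spans 49660 bp and held 71 low peaks in replicate 1 and 81 in replicate 2. No protein-coding gene lies in it, and the nearest TSS, 52.7 kb away, is that of Twist2, a transcription factor of mesenchymal cells. Its low peaks had median heights of 0.177 and 0.2, and 6 tall peaks of replicate 1 and 1 of replicate 2 lay among them. Listed bases made up 70.4% of it in replicate 1 and 67.6% in replicate 2.

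Patch 2, chr15:93592336-93649660, overlaps Prickle1, a gene of planar cell polarity, and held 48 low peaks in replicate 1 and 88 in replicate 2. Patch 3 lies over Stac, which encodes a muscle and neuronal adaptor protein, with 24 and 91 low peaks. Patch 4, chr7:43814241-43861780, covers the kallikrein genes Klk5, Klk6 and Klk7, serine proteases of epithelia, with 29 and 75. Patch 8 lies over Nhsl2 and Rtl5 on the X chromosome, with 11 and 77. Patch 12, in the zinc finger gene Zfp618, had 18 and 66. In these 5 places replicate 1 had fewer low peaks than replicate 2, and in patches 3 and 12 they fell into 3 separate patches. Patch 5, over Mier2 and the lipid phosphatase gene Plpp2, was near balance, with 52 and 47. Patch 7, over the sialyltransferase gene St8sia1 and Sult6b2, had 35 and 55.

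In other shared patches the numbers of low peaks lay closer together. Patch 9 covers part of Nsun2, an RNA methyltransferase gene, with 43 low peaks in each replicate. It ran over chr13:69626958-69649217 in replicate 1 and chr13:69627482-69648520 in replicate 2. Patch 13 lies in an intron of Col23a1, a transmembrane collagen gene, with 39 and 43 low peaks, at chr11:51364204-51385768 in replicate 1 and chr11:51364197-51387351 in replicate 2. Patch 19, over Adam12, a metalloprotease gene, had 41 and 37 and ended at the same base, 133920240 on chromosome 7, in both. Patches 10 and 11 are neighbours on chromosome 12, at chr12:17502861-17524657 and chr12:17474899-17497780. They held 42 and 43 low peaks in the first and 43 and 41 in the second. The nearest TSS of both is that of Odc1, the ornithine decarboxylase of polyamine synthesis, 20.1 kb and 47 kb away. The gap between them is spanned by a stretch of 6000 bp, chr12:17497401-17503400, which reaches into the facing ends of both. In it each bin of 100 bp is at least 95% repeat-masked. Patch 18, over the myeloid receptor genes Trem1 and Trem3, had 35 and 43 low peaks and also ends beside such a stretch, of 6100 bp.

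Of the other patches among the first 20, patch 6 in Rbms3 held 43 and 50 low peaks. Patch 16, over Dera, an enzyme of deoxyribose breakdown, held 37 and 42. Patch 17, over Arsb, a lysosomal sulfatase gene, ran against the trend, with 56 in replicate 1 and 22 in replicate 2. Patches 14, 15 and 20 touch no protein-coding gene, and their nearest TSSs are those of Mrps22, Rps6kc1 and Trpc7, 82.2 kb, 137 kb and 152 kb away. Within the first 20, 14 overlap a protein-coding gene.

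**Figure D4:**
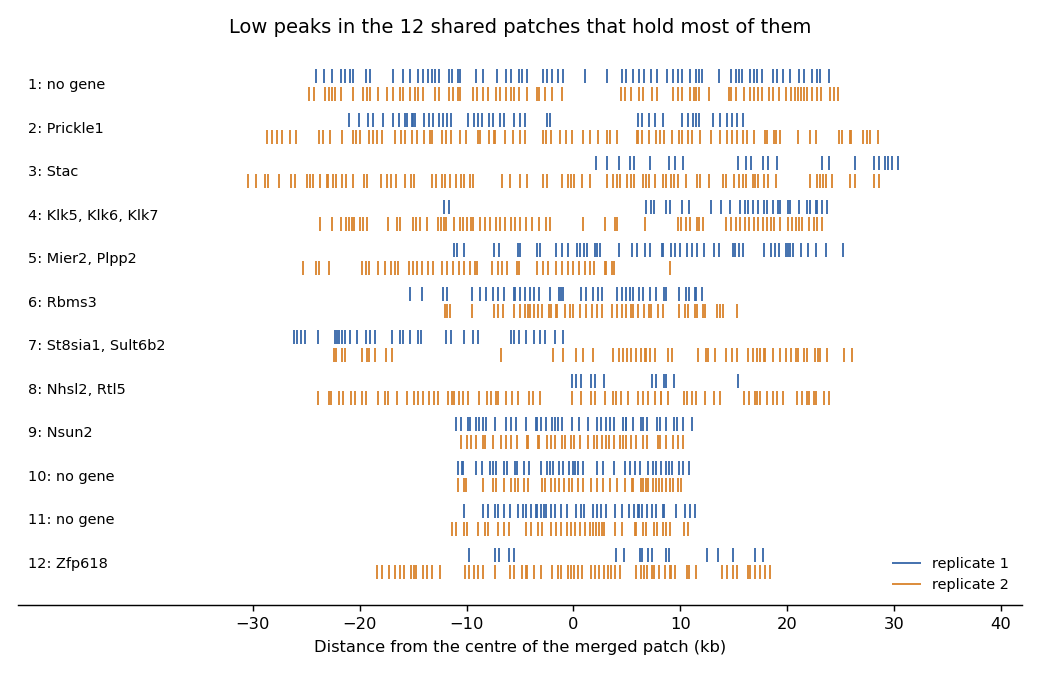
Centres of low peaks (ticks) in the 12 shared patches with the most low peaks, by distance from the centre of the merged patch (horizontal axis, kb), with replicate 1 above and replicate 2 below in each row. Patches 9, 10 and 11 are filled end to end in both replicates, whereas in patches 3, 4, 8 and 12 replicate 1 has fewer low peaks and leaves parts of the span empty.

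Members of the gene lists that a shared patch touched were looked at singly, apart from the olfactory receptor and protocadherin families. Shh encodes the Hedgehog ligand that the urothelium secretes toward the stroma. Its patch, chr5:28447741-28463000, held 9 low peaks in replicate 1 and 26 in replicate 2 and covers part of the gene without its TSS. Jag1, a Notch ligand, had 11 and 18 low peaks within the gene. Fgf18, a growth factor gene, had 18 and 12, also within the gene. Krt5, the keratin of basal urothelial cells, was touched at its 3′ end by a patch with 11 and 5 low peaks. Grhl2, an epithelial transcription factor, had 10 and 11 near its 3′ end.

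At the Hoxa cluster, a patch of replicate 2 with 26 low peaks lay over the TSSs of Hoxa10 and Hoxa11. The overlapping patch of replicate 1, chr6:52250001-52252300, held 5 low peaks and touched neither gene. Over the merged 15.6 kb replicate 1 had 18 tall peaks and replicate 2 had 5. The replicate with fewer low peaks in its patch thus had more tall ones over the merged span. Low peaks that lay in no patch were not counted, and the height limit that parts low from tall differs between the replicates. At Nfic, a nuclear factor I gene, counts made in the same way again gave replicate 1 fewer low and more tall peaks. There were 8 and 18 low peaks beside 13 and 9 tall ones. Over the whole shorter lists replicate 1 likewise had fewer low and more tall peaks. It had 23557 low and 38066 tall peaks, and replicate 2 had 45827 and 31718. Whether these 2 places differ from that general difference was not tested. Pax6, a regulator of eye and brain development, had 11 and 10 low peaks and no tall peak in either replicate. Msx2, a homeobox gene of epithelium and mesenchyme, had 12 in each and no tall peak. At Gata4, an endoderm and heart regulator, the patch of replicate 1 reached into the gene and held 31 low peaks. The patch of replicate 2 that it overlaps, chr14:63286381-63288360, held 6 and lay outside the gene.

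The 3 genes of the imprinted list touched by a shared patch were noncoding. Airn, the antisense RNA of the Igf2r domain, carried a patch of 16.7 kb with 21 and 20 low peaks. Rian and Mirg are noncoding RNAs of the Dlk1 domain on chromosome 12. The patches at Rian held 8 and 7 low peaks. At Mirg the patch of replicate 2 held 31 and reached into the gene, whereas the overlapping patch of replicate 1 held 8 and lay beyond it. The potassium channel gene Kcnq1, which lies in another imprinted domain and stood in the multicopy list although it is a single-copy gene, had 21 and 11.

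The fullest patches without a partner were as large as many shared ones, and in most of them the other replicate had almost no listed bases. In replicate 1 the fullest held 52 low peaks over 35280 bp, with Txndc5 as the nearest TSS, 7.2 kb away. Of its bases 58.9% were listed in replicate 1 and 1.01% in replicate 2. A patch in Igf2bp3, a fetal RNA-binding protein gene, held 45 low peaks, and one in Ano2, a chloride channel gene, also held 45. In both, 0 bases and 0 peaks were listed in replicate 2. The patches near Ttc8 and Rgs10 held 51 and 47, with 0.784% and 6.95% of bases listed in replicate 2, which had 10 peaks of its longer list in the second.

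In replicate 2 the fullest lay in Ldlrad3, a receptor gene, with 77 low peaks over 44900 bp and 62 footprints. There 65.6% of the bases were listed in replicate 2, and 0 bases, 0 peaks and 0 footprints in replicate 1. The next 3 held 76 each: a patch 320 kb from the TSS of Plekhb2, one in Bicc1, an RNA-binding protein gene, and one in St3gal3, a sialyltransferase gene. Of their bases 0.0206%, 2.64% and 11.6% were listed in replicate 1, which had 21 peaks of its longer list at St3gal3. The patch in Phactr1, a regulator of actin, held 71, with 3.67% listed in replicate 1.

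Patch lengths fell off steeply beyond 24 kb. In replicate 1, 39 patches were 18 to 20 kb long, 53 were 20 to 22 kb, 29 were 22 to 24 kb and 8 were 24 to 26 kb. In replicate 2 the same classes held 68, 80, 58 and 20. Low peaks joined over gaps of up to 10 kb in place of 3 kb gave a rise near 50 kb. In replicate 1, 24 runs were 35 to 40 kb long and 17 were 40 to 45 kb. A further 32 were 45 to 50 kb, and 5 were 50 to 55 kb. In replicate 2 these numbered 56, 39, 59 and 28, so 45 to 50 kb was little above 35 to 40 kb. The central 4 kb of the runs of 45 to 50 kb were at least 80% repeat-masked in 16 of 32 runs (50%) in replicate 1 and in 17 of 59 (28.8%) in replicate 2. For runs of 30 to 40 kb this held in 0 of 66 and 5 of 116. The classes next to 45 to 50 kb were closer to it in part. Runs of 40 to 45 kb had 4 of 17 (23.5%) and 4 of 39 (10.3%), and those of 50 to 55 kb had 0 of 5 and 6 of 28 (21.4%). Within the runs of 45 to 50 kb listed bases fell from a mean of 56.7% and 54.7% in one arm to 16.2% and 25% at the centre. At the centre of runs of 50 to 55 kb the means were 16.7% and 30.5%, and in runs of 30 to 40 kb 52.3% and 45.5%. Runs joined over up to 10 kb can hold gaps without low peaks, and the part of these gaps in the listed shares was not tested. The pattern of run lengths and masked centres was noticed in the data, and the length classes were chosen after seeing it.

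Low peaks of patches were also more frequent 5 to 25 kb from long masked stretches than 25 to 45 kb away. On the autosomes and X, 12236 stretches of at least 5 kb consist of bins of 100 bp that are each at least 95% masked. Between 5 and 25 kb from their midpoints, 1.65 low peaks of patches were found per 100 stretches and 2.5 kb in replicate 1, against 0.727 between 25 and 45 kb. That is a ratio of 2.27. In replicate 2 the values were 3.94 and 1.89, a ratio of 2.09. Tall peaks had ratios of 0.886 and 0.887. Among low peaks that lay in no patch the excess was smaller but present, with ratios of 1.65 and 1.35, so it was not confined to patches. Peaks near several stretches were counted for each, and low peaks of 1 patch are not independent. This concerns a minority of patches: 18.6% in replicate 1 and 19.4% in replicate 2 came within 25 kb of such a midpoint, where 20.8% of the bases of these chromosomes lie. The same held for 16.8% of the low peaks of patches in replicate 1 and 19.5% in replicate 2, below that share of bases. By the patches' own midpoints, their density was 4.79 per 10 Mb in replicate 1 within 25 kb of a stretch, 2.9 from 25 to 50 kb, 3.9 from 50 to 100 kb and 7.96 farther away. In replicate 2 it was 8.87, 5.75, 8.32 and 13.4. Density was thus highest far from long masked stretches, lowest at 25 to 50 kb and higher again within 25 kb, in both replicates. Whether masked sequence, or the way peaks were called beside it, has a part in forming patches was not tested.

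**Figure D5:**
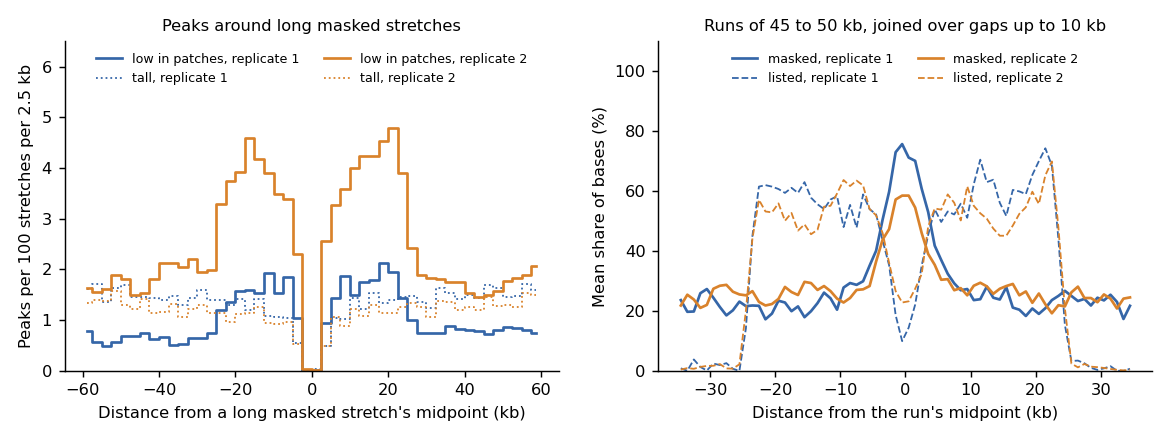
Left, low peaks of patches (solid) and tall peaks (dotted) per 100 long masked stretches and 2.5 kb (vertical axis) by distance from the stretch's midpoint (horizontal axis, kb). Low peaks drop at 25 kb on both sides, from 1.65 to 0.727 on average in replicate 1, and tall peaks do not. Right, mean share of bases (vertical axis, %) that are masked (solid) or listed in the FDR list (dashed) around the midpoints of runs of 45 to 50 kb (horizontal axis, kb), where masked bases peak in the centre and listed bases dip. The outer ends of the listed share near 24 kb follow from the choice of run length.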

How the data were processed

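DNase-seq files of 2 samples, 1 for each replicate, were used. Positions are in mm10 per the labels, and no peak lay beyond the chromosome ends of GRCm38.p6, whose sequence and repeat masking were used with GENCODE M21. The peak height is a signal that the authors deposited, on a scale that no source used here gives. The deposited FDR lists give a p-value adjusted as a false discovery rate for each base stretch, and all listed stretches were used. Each deposited footprint carries the same p-value, 0.01, so footprints were only counted. No source used here names the aligner, the callers or the read depth. Low peaks and patches were found, overlapped and annotated with Python 3.11.15, numpy 2.4.6, pandas 2.3.3, scipy 1.17.1, pysam 0.24.0 and samtools 1.23.1. The patch finder was tested on simulated peaks and recovered the planted runs. An overlap was at least 1 bp.

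The patches, gene lists, markers and motifs were chosen with earlier results of these data known. The masked stretches and the runs joined over 10 kb were added after the data were seen. Named genes are those covered by, or with the TSS nearest to, the 20 shared patches with the most low peaks and the 5 fullest patches of each replicate without a partner. List members touched by a shared patch are also named, apart from families defined by symbol. Symbols beginning with Olfr, Vmn, Pcdha, Pcdhb or Pcdhg defined the receptor and protocadherin families. No statistical test was made, since there is 1 group.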

Additional observations from a re-analysis of the deposited data

How the results depend on the processing

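Each summary was recomputed with other gaps, run sizes, height limits and peak lists, and without each replicate. Of 61 recomputed values 47 stayed the same, meaning within 1.5 times for a count of patches and within 1 SD of the replicates for a mean. Some of the 47 could not move. With n = 2 either replicate alone lies within 1 SD of the mean, and a replicate's number of patches does not change under its own height limit. None of the numbers of patches moved. With at least 8 low peaks they fell furthest, from 1487 to 992 in replicate 1 and from 2661 to 1835 in replicate 2. The 992 lay only just within the 1.5 times allowed. In the longer list they rose to 1840 and 3162. The mean share of shared patches, 31.8%, did not move either, but its SD of 12.7 (n = 2) is wide. The share was 23.4% where at least 0.5 of a patch had to be covered and between 27.1% and 33.3% in the other settings. Since 607 patches were shared in each replicate, that SD reflects only their different numbers of patches, and few shifts could pass it. The SD of the other summaries is small (n = 2), so shifts of a few percentage points passed it. The share of low peaks with a footprint was 45% with gaps of at most 1 kb, 44.6% with 5 kb, 45.1% where a tall peak ended the run, 42.8% at 0.75 of each limit, 44.5% with the limit of replicate 1 in both, 45.1% with that of replicate 2, and 42.1% in the longer list. The share of patches touching a gene was 49.9% at 1 kb, 54.8% at 5 kb, 54.6% with at least 8 low peaks, 51.2% where a tall peak ended the run, 52.2% at 0.75 of each limit and 54.7% in the longer list. Median GC was 50.2% in the longer list. Leaving out a replicate gave 44.7% and 44.8%, 53.1% and 53.8%, and 50.6% and 50.9% for these summaries. Added after the data were seen, the ratio of low peaks near against far from masked stretches lay between 2.16 and 2.4 in replicate 1 and between 1.5 and 2.11 in replicate 2, with stretches of at least 3 or 6.5 kb, bins at least 80% masked, or X left out. With gaps of 6 kb, runs of 45 to 50 kb numbered 16 and 21 beside 7 and 24 of 40 to 45 kb, so in replicate 2 the rise at 45 to 50 kb was seen at 10 kb only. No paired analysis was possible because there is 1 group. Depth per library is unknown, and a patch absent from a replicate may be one it could not show.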
